A study of Mus musculus with 6 samples.

Results

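GABA-A receptors are chloride channels that open when GABA binds, and they carry most fast inhibition in the hippocampus. Each channel is a ring of subunits. Receptors that hold the alpha subunits encoded by Gabra2 and Gabra3 sit mainly at inhibitory synapses, whereas those with the subunits of Gabra4, Gabra5 and Gabrd sit mainly outside the synapse and carry a tonic current. Beta subunits, here those of Gabrb1 and Gabrb2, form the GABA binding site together with an alpha subunit and occur in receptors of both places. These 7 genes were chosen by gene symbol from a table of 16060 rows, with earlier results of these data known, and each symbol had exactly 1 row.

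RNA of the hippocampus was sequenced from 3 control mice and 3 mice treated with methamphetamine (MA), with 1 library per mouse. All were adult male C57BL/6 mice. The MA dose rose weekly, from 5 mg/kg in week 1 to 10 mg/kg in week 2 and 15 mg/kg in week 3. Control mice received intraperitoneal saline instead, and all mice were killed after behavioral tests on day 22. A mouse counted as a replicate, and neither the labels nor the methods name a sequencing batch.

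None of the 7 subunit genes was called between the groups, where a call means a limma p below 0.05 after Benjamini-Hochberg adjustment over 13321 tested genes. Of all tested genes 0.263% were called. Before adjustment 1 of the 7 was below 0.05, Gabra5, whose level was lower in MA. That level was reached by 10.4% of all tested genes, and by 5.46% of them in the lower direction. For 0 of the 7 did the MA libraries lie entirely above or below the control libraries, which was so for 17.5% of all tested genes, 10.2% in the lower direction. The median difference of the 7 was 0.07 on the log2 scale, with 5 higher and 2 lower in the MA libraries, and the median over all tested genes was -0.01. With 3 libraries a side, 0.1 is the smallest two-sided p of the exact permutation test. Of all tested genes lower in MA, Egr1 had the smallest p-value, at -1.46 on the log2 scale (limma adjusted p = 0.0181). The paper reports Egr1 as higher in MA by RNA-seq and by qPCR. Directions given here are those of the deposited values as labelled, and the reason for this difference was not tested.

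Values are given as deposited, on a scale read as log2 of RPKM plus 1. RPKM is a read count per length of transcript and per depth, so levels can be compared between genes. The table holds no read totals, and library depth is therefore unknown. Of the hippocampal markers, 8 of 8 dentate granule cell genes, 6 of 6 CA1 genes and 6 of 8 CA2 and CA3 genes passed the filter on low values. So did 8 of 8 thalamus, 7 of 7 cerebral cortex and 5 of 6 striatum markers, against 2 of 6 of cerebellar granule cells. Passing the filter therefore does not set the hippocampus apart from its neighbours. The summed RPKM of 8 choroid plexus genes was 65.6 to 421 in the control libraries and 1780 to 5080 in the MA libraries, with 8 of 8 higher and 4 called, and none was at 0 throughout. Most of that sum was Ttr, at 57.7 to 410 and 1740 to 5030 (limma adjusted p = 0.0887). The mean log2 level of the 8 genes was 1.58 to 2.19 for Control and 3.44 to 4.01 for MA. The library labelled MA replicate 3 stood apart, with a mean correlation to the others of its group of 0.978 across genes, against 0.984 and 0.985 for MA replicates 1 and 2 and 0.991 to 0.993 for the control libraries. Results that rest on it are given with and without it. Sample quality weights, an alternative run, gave it a weight of 0.194, against 0.9366 to 2.454 for the other libraries. That alternative therefore largely sets the same library aside.

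**Figure D1:**
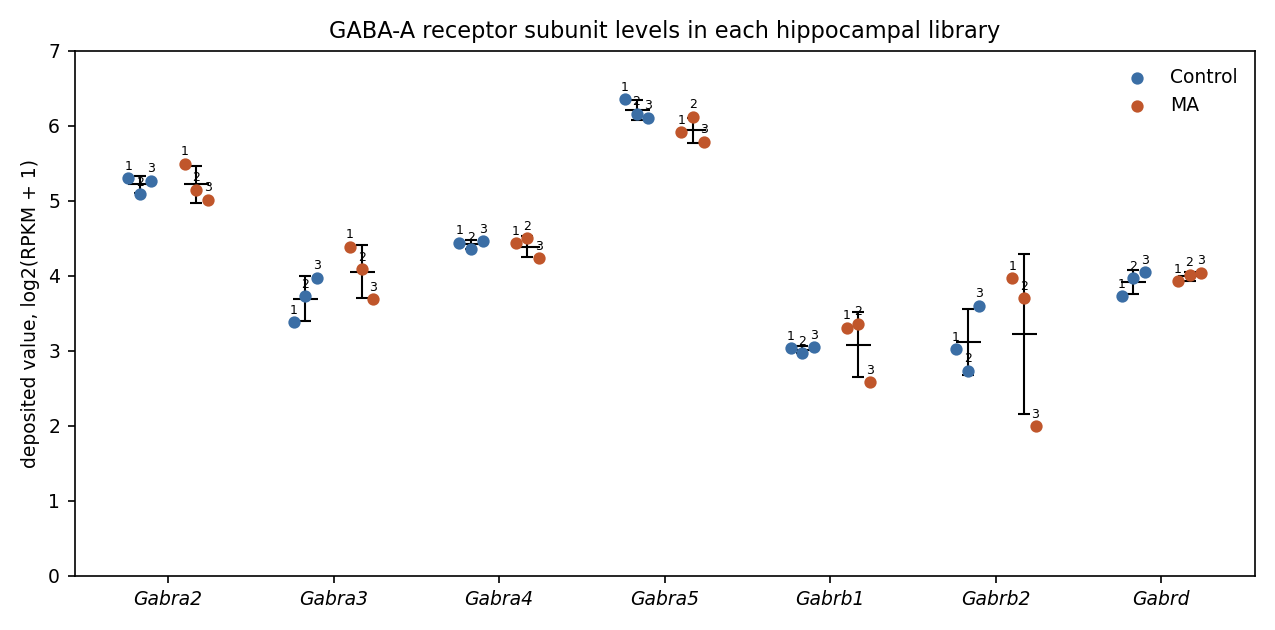
Deposited log2(RPKM + 1) values of the 7 subunit genes in each library (points, numbered by replicate; bars show the mean and SD of 3 libraries). Gabra5, Gabra2 and Gabra4 held the top 3 places in all 6 libraries, and Gabrb2 ranged from 1.996 in MA replicate 3 to 3.97 in MA replicate 1.

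The order of the levels was the same at the top in every library. Gabra5 held rank 1 of the 7, Gabra2 rank 2 and Gabra4 rank 3 in all 6 libraries, and the ranges of these 3 genes did not overlap. Gabra3 overlapped both Gabra4 and Gabrd in range, Gabrb1 lay below Gabrd and Gabra3 in every library, and Gabrb2 overlapped Gabra3, Gabrd and Gabrb1. Gabrd held rank 4 in the 3 control libraries and in MA replicate 3, but rank 6 in MA replicate 1 and rank 5 in MA replicate 2. On the RPKM scale the sum of the 7 genes was 171 ± 7.7 for Control and 166 ± 24 for MA (SD, n = 3 each). The lowest sum, 139, was that of MA replicate 3.

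Between the synaptic alpha genes described here, Gabra2 and Gabra3, Gabra2 had the higher level. The alpha2 subunit is found at the axon initial segment and at somatic synapses of principal cells. The log2 level of Gabra2 was 5.298, 5.088 and 5.267 in control replicates 1, 2 and 3 and 5.494, 5.146 and 5.016 in MA replicates 1, 2 and 3. The highest and the lowest library were thus both MA libraries, and the groups overlapped. The difference was 0.0011 on the log2 scale, with a 95% interval from -0.31 to 0.32 (limma adjusted p = 0.999).

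Gabra3 encodes a synaptic subunit that is known for high levels in the reticular nucleus of the thalamus. Its log2 level was 3.377, 3.724 and 3.973 in control replicates 1, 2 and 3 and 4.387, 4.091 and 3.689 in MA replicates 1, 2 and 3. MA replicates 1 and 2 lay above every control library, and MA replicate 3 lay below 2 of them. On the RPKM scale the means were 12.1 ± 2.66 for Control and 16.0 ± 4.02 for MA (SD, n = 3 each). The log2 difference of 0.36 had a standard error of 0.21 and a 95% interval from -0.13 to 0.86 (limma adjusted p = 0.608, exact two-sided permutation p = 0.3). Left-out libraries moved the difference between 0.20, without MA replicate 1, and 0.55, without MA replicate 3 (limma adjusted p = 0.145 for the latter).

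Among the extrasynaptic subunits, Gabra5 had the smallest p-value of the 7. The alpha5 subunit is enriched in the hippocampus, where it carries tonic inhibition in pyramidal cell dendrites. The log2 level of Gabra5 was 6.358, 6.159 and 6.106 in control replicates 1, 2 and 3 and 5.917, 6.119 and 5.788 in MA replicates 1, 2 and 3. MA replicate 2 lay just above control replicate 3, which was the only point of overlap. The RPKM means were 73.1 ± 6.95 and 60.7 ± 7.21 (SD, n = 3 each). The log2 difference was -0.27 with a standard error of 0.11 and a 95% interval from -0.53 to -0.004. The difference did not pass the threshold over all tested genes (unadjusted limma p = 0.0474, limma adjusted p = 0.473, exact two-sided permutation p = 0.2). It was lower in MA with each library left out in turn, between -0.36 and -0.19, and was -0.15 with sample quality weights (limma adjusted p = 0.335).

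Most markers of CA1 pyramidal cells were lower in MA, as Gabra5 was. The mean log2 level of the 6 CA1 genes was 4.14, 4.30 and 4.16 in control replicates 1, 2 and 3 and 4.05, 3.94 and 3.99 in MA replicates 1, 2 and 3. These means did not overlap between the groups, whereas the summed RPKM of 138 to 160 for Control and 124 to 140 for MA did. Of the 6 genes 5 were lower in MA, 2 at an unadjusted p under 0.05 and 0 called (limma), and none was at 0 throughout. Control replicate 1 and MA replicate 2 had the highest Gabra5 level of their groups but the lowest CA1 mean. Microglia means did not overlap either, at 4.10 to 4.23 for Control and 4.02 to 4.07 for MA. Of the dentate granule cell markers 6 of 8 were lower, and of the interneuron markers 9 of 12. All markers of endothelium, thalamus and choroid plexus were higher. The part of any of these cells in the Gabra5 values was not tested.

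Gabra4 and Gabrd encode subunits that assemble with each other in dentate granule cells and in thalamic relay neurons, in receptors that respond to neurosteroids. The log2 level of Gabra4 was 4.439, 4.354 and 4.464 in control replicates 1, 2 and 3 and 4.435, 4.497 and 4.231 in MA replicates 1, 2 and 3. Its values spanned only 0.27, the narrowest range of the 7. The difference of -0.03 had a 95% interval from -0.26 to 0.20 (limma adjusted p = 0.944). It changed sign to 0.05 without MA replicate 3.

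Gabrd spanned 0.31. Its log2 level was 3.730, 3.966 and 4.044 in control replicates 1, 2 and 3 and 3.927, 4.016 and 4.040 in MA replicates 1, 2 and 3. All 3 MA values fell within the range of the control values. The difference was 0.08 with a 95% interval from -0.17 to 0.33 (limma adjusted p = 0.85). Within a library Gabrd lay below Gabra4 in all 6, with log2 differences of -0.71, -0.39 and -0.42 in control replicates 1, 2 and 3 and -0.51, -0.48 and -0.19 in MA replicates 1, 2 and 3.

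The beta subunits varied mostly among the MA libraries. Gabrb1 was 3.030, 2.966 and 3.049 on the log2 scale in control replicates 1, 2 and 3 and 3.308, 3.359 and 2.581 in MA replicates 1, 2 and 3. The control libraries were within an SD of 0.043, MA replicates 1 and 2 lay above all of them and MA replicate 3 below all of them. With all 6 libraries the difference was 0.07 with a 95% interval from -0.41 to 0.54 (limma adjusted p = 0.943). Without MA replicate 3 it was 0.32 (limma adjusted p = 0.087), the smallest adjusted p of any of the 7 genes under any of the 17 alternatives run.

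Gabrb2 had the widest spread of the 7. The beta2 subunit is abundant in the thalamus and occurs in the hippocampus as well. The log2 level of Gabrb2 was 3.024, 2.735 and 3.600 in control replicates 1, 2 and 3 and 3.967, 3.702 and 1.996 in MA replicates 1, 2 and 3. On the RPKM scale MA replicate 1 held 14.6 and MA replicate 3 held 2.99. The pooled SD within groups was 0.82, larger than that of 99.7% of the 2707 tested genes whose mean lay within 0.5 of its own, and their median SD was 0.15. The difference of 0.10 therefore had a 95% interval from -1.06 to 1.27 (limma adjusted p = 0.964). Without MA replicate 3 it was 0.71 (limma adjusted p = 0.151), and without MA replicate 1 it was -0.27.

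**Figure D2:**
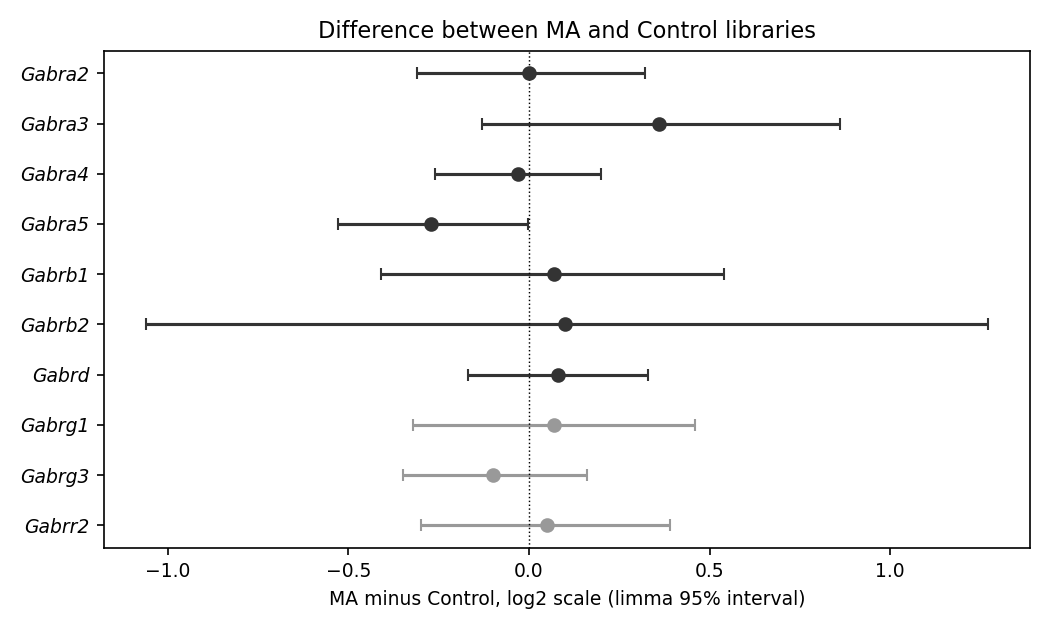
MA minus Control difference on the log2 scale with the 95% limma interval (horizontal bars) for the 7 subunits (black) and the 3 other subunits that were tested and are reported (grey). The interval of Gabra5 ends at -0.004, and those of the other genes include 0.

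**Figure D3:**
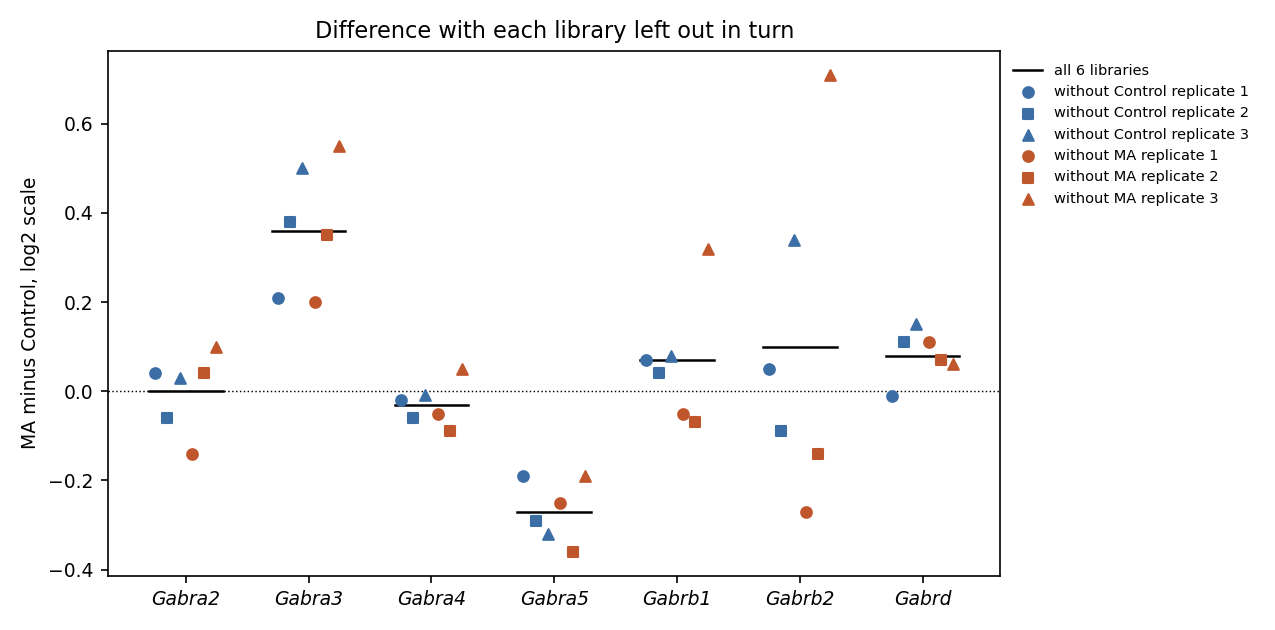
MA minus Control difference on the log2 scale for each subunit with all 6 libraries (line) and with each library left out in turn (points). Gabrb2 moved between -0.27 and 0.71, Gabrb1 between -0.07 and 0.32, and Gabra5 stayed between -0.36 and -0.19.

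Marker means of thalamus, of neurons in general and of endothelium were highest in MA replicates 1 and 2, as were the beta subunits and Gabra3. The mean log2 level of 8 thalamus genes was 2.25, 2.25 and 2.59 in control replicates 1, 2 and 3 and 3.28, 3.45 and 2.31 in MA replicates 1, 2 and 3. Their summed RPKM was 41.0 to 59.9 in the control libraries and 60.3 to 122 in the MA libraries. All 8 were higher in the MA libraries, 2 of 8 reached an unadjusted p under 0.05 and 0 were called by limma, and none was at 0 throughout. MA replicates 1 and 2 were the highest libraries for these markers and for Gabrb2, Gabrb1 and Gabra3, whereas MA replicate 3 was near the control libraries for the markers and below them for both beta subunits. The pattern was not particular to the thalamus genes. The mean log2 level of 5 pan-neuronal genes was 8.22, 8.18 and 8.30 in control replicates 1 to 3. In MA replicates 1 to 3 it was 8.40, 8.42 and 7.91. Endothelium markers also had their highest means in MA replicates 1 and 2, at 4.34 and 4.09. Gabrd, whose product occurs in thalamic relay neurons, had MA values within the control range. The part of the thalamus or of other cells in these subunit values was not tested. Fewer cells of a type and less RNA per cell cannot be told apart in bulk tissue.

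**Figure D4:**
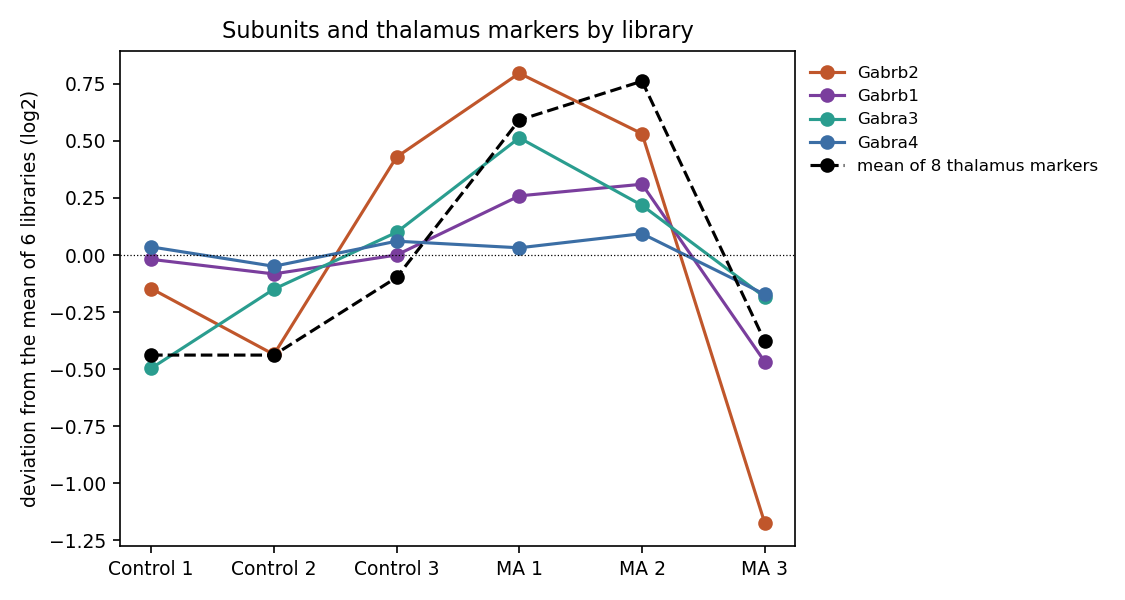
Deviation of each library from the mean of the 6 libraries on the log2 scale for Gabrb2, Gabrb1, Gabra3 and Gabra4 and for the mean of 8 thalamus markers (dashed). MA replicates 1 and 2 lie high for the markers and 3 of the subunits, Gabrb2 falls in MA replicate 3 and Gabra4 stays nearly flat. Lines join the values of a gene and show no order among replicates.

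Values in MA replicate 3 also varied with gene length. The 1331 tested genes with the longest exonic sequence lay at a median of -0.17 from their own mean in that library and the 1331 shortest at 0.14, while in the other libraries these medians were between -0.03 and 0.06 and between -0.08 and 0.05. Gabrb1 has the longest exonic sequence of the 7, with 13838 bases, and is among the 1331 longest. Gabrd and Gabra5 have the shortest, with 2875 and 2974 bases. The mean log2 level of 5 pan-neuronal genes was 7.91 in MA replicate 3 and 8.18 to 8.42 in the other libraries, and the part of this in the subunit values was not tested. After a correction for exonic length the difference was 0.10 for Gabrb1, 0.12 for Gabrb2 and -0.26 for Gabra5, and 0 of the 7 were called.

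Read together by placement, the 3 extrasynaptic genes had a mean log2 level of 4.84, 4.83 and 4.87 in control replicates 1, 2 and 3 and 4.76, 4.88 and 4.69 in MA replicates 1, 2 and 3. The mean of the synaptic genes Gabra2 and Gabra3 was 4.34, 4.41 and 4.62 and 4.94, 4.62 and 4.35 in the same order. The extrasynaptic mean minus the synaptic mean was 0.50, 0.42 and 0.25 in the control libraries and -0.18, 0.26 and 0.33 in the MA libraries. MA replicate 1 was the only library in which the synaptic mean was the higher one, and the groups overlapped. The group means were 0.392 ± 0.13 and 0.137 ± 0.28 (SD, n = 3 each), a difference of -0.25 that was -0.10 without MA replicate 1. It is given as a description, with no test, because the genes of each side were chosen.

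**Figure D5:**
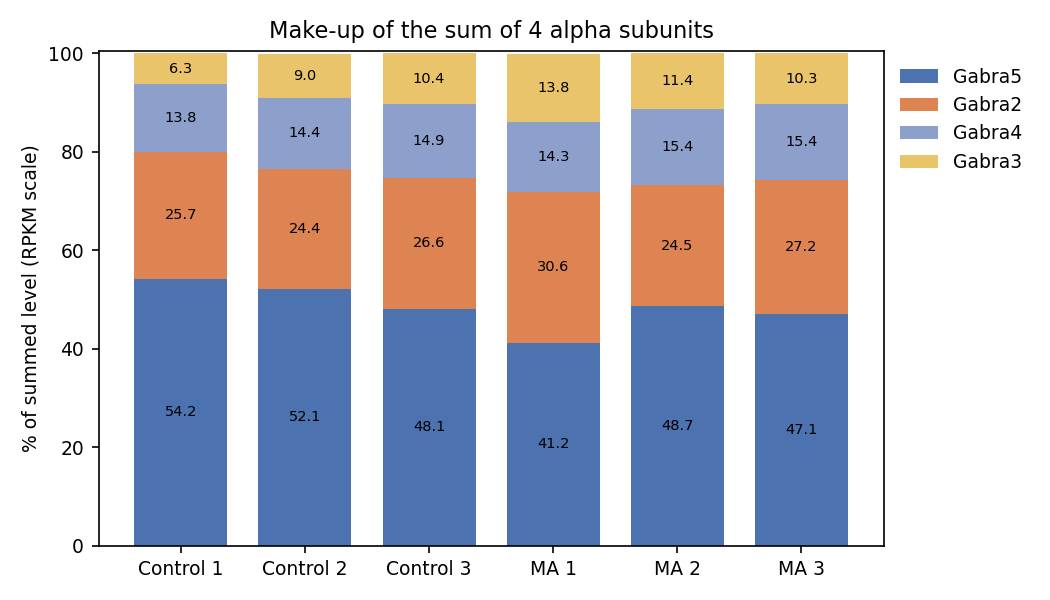
Share of each gene, in %, in the sum of the RPKM-scale levels of Gabra5, Gabra2, Gabra4 and Gabra3 in each library. Gabra5 made up 41.2% to 54.2% and Gabra3 6.28% to 13.8%, with the lowest Gabra5 share and the highest Gabra3 share in MA replicate 1.

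The make-up of the 4 alpha genes was also compared on the RPKM scale. Gabra5 made up 54.2%, 52.1% and 48.1% of their sum in control replicates 1, 2 and 3 and 41.2%, 48.7% and 47.1% in MA replicates 1, 2 and 3. The share of Gabra3 was 6.28%, 9.04% and 10.4% in the control libraries and 13.8%, 11.4% and 10.3% in the MA libraries. For both genes the groups overlapped by less than 1 percentage point. Gabra4 kept between 13.8% and 15.4% in all 6 libraries. Counting error on these shares is unknown because the table holds no read totals.

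The genes most like Gabra5 across the 6 libraries, by the root mean square difference of values centred on each gene's mean, were Nhsl2, Aldh1a1 and Slc4a7. The differences were 0.0328, 0.0373 and 0.038 on the log2 scale, where Gabra5 itself had a root mean square deviation of 0.181. None of the 3 was called (limma adjusted p of 0.526, 0.499 and 0.497).

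Positions are those of GENCODE M21 on GRCm38 and serve for location only, since the build behind the values may differ. Gabra2 lies on chromosome 5 from 70957597 to 71095849, Gabra4 from 71569749 to 71658308 and Gabrb1 from 71658113 to 72149037 on the same chromosome. Gabra4 on the minus strand and Gabrb1 on the plus strand start head to head and share 46 exonic bases, and without stranded counting reads there cannot be assigned to one of the genes. Within a library Gabrb1 lay below Gabra4 with log2 differences of -1.41, -1.39 and -1.42 in control replicates 1, 2 and 3 and -1.13, -1.14 and -1.65 in MA replicates 1, 2 and 3. Gabrb2 lies on chromosome 11 from 42419757 to 42629028, Gabra5 on chromosome 7 from 57407672 to 57510059, Gabrd on chromosome 4 from 155384980 to 155398112 and Gabra3 on the X chromosome from 72432681 to 72656848. Gabra5 shares 148 exonic bases with the antisense gene Gm9962.

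Promoters were compared for the head-to-head pair, for Gabra5, which had the smallest p-value, and for Gabrb2, which varied most. Sequences are RefSeq windows on GRCm38.p6, from 250 bases before to 50 bases after an annotated start, and 6 of the 7 genes had a window, 10 windows in all. Capitals mark matches on either strand to 6 motifs. The cAMP response element was searched as TGACGTCA, and the half-site that lies within it as TGACG. The Egr site, which can overlap a GC box, was searched as GCGNGGGCG. The letters of the E-box, a site of helix-loop-helix factors, were CACGTG. For the GC box, to which Sp factors bind, the letters were GGGCGG. The TATA box, which places the start of transcription, was searched as TATAAA.
Gabra4, chr5:71658259-71658558, minus strand: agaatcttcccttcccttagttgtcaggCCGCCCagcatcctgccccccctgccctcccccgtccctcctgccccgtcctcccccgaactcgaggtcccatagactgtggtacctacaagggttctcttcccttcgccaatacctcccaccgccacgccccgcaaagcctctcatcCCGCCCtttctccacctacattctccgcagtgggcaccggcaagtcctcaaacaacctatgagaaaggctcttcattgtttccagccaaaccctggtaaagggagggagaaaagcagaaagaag
Gabrb1, chr5:71657671-71657970, plus strand: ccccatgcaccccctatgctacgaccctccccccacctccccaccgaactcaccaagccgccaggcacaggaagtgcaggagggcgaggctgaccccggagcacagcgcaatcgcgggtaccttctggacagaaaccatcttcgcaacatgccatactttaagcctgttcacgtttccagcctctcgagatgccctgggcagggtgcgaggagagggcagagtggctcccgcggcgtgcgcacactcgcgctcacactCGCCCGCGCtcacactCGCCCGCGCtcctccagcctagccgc
Gabra5, chr7:57510010-57510309, minus strand: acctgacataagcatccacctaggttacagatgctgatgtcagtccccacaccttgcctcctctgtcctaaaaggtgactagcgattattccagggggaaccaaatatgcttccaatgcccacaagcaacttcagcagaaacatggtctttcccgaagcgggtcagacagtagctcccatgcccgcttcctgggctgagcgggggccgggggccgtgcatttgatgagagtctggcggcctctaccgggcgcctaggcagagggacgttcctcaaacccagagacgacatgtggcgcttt
Gabrb2, chr11:42420190-42420489, plus strand: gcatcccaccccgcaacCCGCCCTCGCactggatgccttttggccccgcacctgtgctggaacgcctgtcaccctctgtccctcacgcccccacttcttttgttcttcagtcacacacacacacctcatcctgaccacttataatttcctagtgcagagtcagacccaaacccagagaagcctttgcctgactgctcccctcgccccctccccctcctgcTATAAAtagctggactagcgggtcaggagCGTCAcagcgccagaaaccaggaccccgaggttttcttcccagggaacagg

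The printed Gabrb1 window held 2 matches to the Egr letters, which begin at bases 9 and 25 after the start, and 25 CG dinucleotides. It ends at 71657970, before the GENCODE start of the gene at 71658113. Further windows of Gabrb1 and Gabrb2, which are not printed, held none of the 6 motifs. The Gabra4 window held 2 GC boxes and 12 CG dinucleotides, and the Gabra5 window held none of the 6 motifs. In the printed Gabrb2 window a TATA box began 30 bases before the start, and a GC box overlapped an Egr match. The Egr letters occurred in 2 of the 10 windows and in 5.55% of all 32851 promoter windows, the GC box in 3 of 10 and in 35.7%, and the TATA letters in 3 of 10 and in 13.6%, where both windows of Gabra3 overlap and share 1 match. The full cAMP response element and the E-box occurred in 0 of the 10 windows, against 1.79% and 7.15% of all windows, and the half-site in 1 of 10 against 20.8%.

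Of the further subunit genes described here, 3 passed the filter on low values and the mean log2 level of each lay below that of all 7. The gamma subunit genes Gabrg1 and Gabrg3 had mean log2 levels of 2.075 ± 0.19 and 1.706 ± 0.11 for Control and 2.145 ± 0.28 and 1.611 ± 0.071 for MA (SD, n = 3 each). The rho subunit gene Gabrr2, whose family forms GABA channels known from the retina, was 0.6015 ± 0.078 and 0.6472 ± 0.25 (SD, n = 3 each). Their differences of 0.07, -0.10 and 0.05 did not pass the threshold (limma adjusted p of 0.93, 0.822 and 0.946). Gabre, Gabrq and Gabrr1 fell under the filter on low values, with log2 values of at most 0.279. Gabra6, a subunit of cerebellar granule cells, was listed at 0 in 4 of the 6 libraries, at 0.1882 in control replicate 2 and at the lowest value of its library in MA replicate 3. Gabrp and Gabrr3 are not analysed here.

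Genes of the wider GABA pathway, including those for the separate GABA-B receptors, were taken from 5 lists and 49 of them were tested. None was called at an adjusted p under 0.05 (limma), 3 were higher and 1 lower at an unadjusted p under 0.05, and 8 of 49 did not overlap between the groups, against 17.5% of all tested genes. Their median difference was 0.02, with 28 higher and 21 lower. With sample quality weights 2 of the 49 were called, Hap1 and Kctd12, which is 4.08% against 4.40% of all tested genes. Without MA replicate 3 there were also 2, Hap1 and Nsf, against 1.93% of all tested genes. Nsf, an ATPase of vesicle fusion that was named after its values were seen, differed by 0.37 without that library (limma adjusted p = 0.0456) and by 0.15 with all 6 (limma adjusted p = 0.84).

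Of 27 tested genes for anchoring, trafficking and auxiliary proteins, 14 were higher and 13 lower. Hap1, whose product binds transport motors and aids the return of receptors to the surface, had the smallest p-value. Its log2 level was 4.812, 4.940 and 5.245 in control replicates 1, 2 and 3 and 6.226, 6.129 and 5.482 in MA replicates 1, 2 and 3. The groups did not overlap, and the difference of 0.95 had a standard error of 0.21 (limma adjusted p = 0.199). It was called without MA replicate 3, at 1.18 (limma adjusted p = 0.0248), and with sample quality weights, at 1.12 (limma adjusted p = 0.00788). The weights give MA replicate 3 little part, so these are not separate results. MA replicates 1 and 2 were the highest libraries for Hap1, as they were for the thalamus, pan-neuronal and endothelium marker means. Among the lower genes Plcl1 had the smallest p-value, with a difference of -0.25 (limma adjusted p = 0.523).

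For synthesis, release, uptake and breakdown of GABA, 9 genes were tested, 5 higher and 4 lower, with none at an unadjusted p under 0.05. Slc6a13, a GABA transporter, was 0.21 higher (limma adjusted p = 0.648), and Gad1, which makes GABA, differed by -0.10 (limma adjusted p = 0.88). Of the 6 genes for GABA-B receptors and their KCTD subunits, Kctd12 had the smallest p-value. Its log2 level was 4.518, 4.855 and 4.503 in control replicates 1, 2 and 3 and 3.793, 4.096 and 4.176 in MA replicates 1, 2 and 3, so the groups did not overlap. The difference of -0.60 had a standard error of 0.14 (limma adjusted p = 0.219) and was called only with sample quality weights, at -0.64 (limma adjusted p = 0.0374). Gabbr2, a GABA-B receptor subunit, was 0.12 higher (limma adjusted p = 0.862). The chloride transporters Slc12a2 and Slc12a5, which set the gradient that these channels use, differed by 0.13 and -0.08 (limma adjusted p of 0.693 and 0.734). Of 5 tested genes for endogenous modulators, Tspo, a mitochondrial protein of the neurosteroid pathway, was 0.41 higher (limma adjusted p = 0.438) and Akr1c14 differed by -0.26 (limma adjusted p = 0.691).

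The 12 interneuron markers, which stand for the cells that release GABA, were also not called. Their mean log2 level was 4.63 to 4.90 in the control libraries and 4.63 to 4.89 in the MA libraries. Of the 12, 9 were lower and 3 higher in MA, with a median difference of -0.10 and 0 at an unadjusted p under 0.05 (limma). Their summed RPKM was 1010 to 1160 for Control and 910 to 1010 for MA. The excitatory receptor families gave the same count. Of 9 AMPA and kainate subunit genes and 6 tested NMDA subunit genes, 0 were called, with 1 in each family at an unadjusted p under 0.05 and median differences of -0.05 and 0.05 (limma).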

How the data were processed

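RNA-seq of 6 hippocampal libraries was analysed, 3 per group. In the paper, reads were aligned with Hisat2 2.0.5 and counted with featureCounts 1.5.0-p3, whereas the submitters' processing notes list Bowtie 0.12.2 and the builds mm8 and mm9. The authors deposited 1 table named as RPKM, whose deposited values are logs, taken here to be log2 with an offset of 1. Multiplied by exonic length, the back-transformed values gave a sum per library of 1.78 to 1.88 times the total expected of RPKM if read as log2, and 18.2 to 19.6 times if read as a natural log. All columns share 1 highest value, so libraries had been normalized to each other before deposit, a step the sources used here do not describe. No strand setting is given.

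No further scaling was applied. Genes had to reach 0.5 on the RPKM scale in 3 or more of the 6 libraries, which 13321 did. They were tested with limma 3.58.1 under R 4.3.3 (lmFit, eBayes with trend, Benjamini-Hochberg adjustment over all tested genes, no covariate). In 10 simulated tables of 13321 genes, 200 of them shifted by 1 log2 unit, the test recovered a median of 75.75% and the median share of false calls was 5.31%. Exact permutation tests used SciPy 1.17.1. The replicate numbers come from the labels, which do not say that same-numbered mice were paired. The study's count model was not used because no counts were analysed here.

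The 7 genes and all lists were chosen with earlier results of these data known. Named genes were the 7, other subunits with a row, the smallest p in each direction per pathway list where none was called, and the 3 genes nearest in pattern to the subunit with the smallest p. Some further genes covered by this rule are not reported here. Alternatives were other filters, pseudocounts, scalings, eBayes without trend, sample quality weights, a replicate block and leaving out each library. A correction for exonic length (lowess, span 0.3, 13302 genes) was added after the data were seen.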

Additional observations from a re-analysis of the deposited data

How the results depend on the processing

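None of the 7 subunits was called by limma under any of the 17 alternatives. Of the other subunits reported, 3 were tested under the filter used, 7 without a filter and 0 with a minimum mean of 5, and none of those tested was called. At an unadjusted p under 0.05, where 1 of 7 stood in the fit as reported, there were 0 without the eBayes trend, with the replicate block and with the exonic length correction with or without that block, 2 with sample quality weights (Gabra3 and Gabrb1), and 0 to 3 when each library was left out in turn. The 3 were Gabra3, Gabrb1 and Gabrb2 without MA replicate 3, all higher in MA, and Gabra5 was not among them. The share of all tested genes at an unadjusted p under 0.05 was not taken for each alternative, so these counts have no background beside them. After adjustment (limma), 4.40% of all tested genes were called with sample quality weights and 1.93% without MA replicate 3, against 0.263% in the fit as reported. These alternatives are not independent, since the weight of MA replicate 3 was only 0.194. Gabra3 and Gabra5 kept their direction under all 17, but Gabra5 shrank to -0.15 with sample quality weights. Among the 17, the other filters, a pseudocount of 1, eBayes without trend and the replicate block cannot change the difference of a gene. Their kept direction was therefore fixed in advance. Gabra2 turned to -0.00049 under median centring, to -0.00048 under quantile normalization, and ranged from -0.14 to 0.10 with a library left out. Gabra4 turned to 0.06 with sample quality weights and ranged from -0.09 to 0.05 with a library left out. Gabrb1 ranged from -0.07 to 0.32, Gabrb2 from -0.27 to 0.71 and Gabrd from -0.01 to 0.15. The extrasynaptic minus synaptic difference ranged from -0.35 to -0.10, with MA replicate 1 left out giving the smallest size. Of the 49 pathway genes, 2 were called with sample quality weights (Hap1 and Kctd12) and 0 to 2 with a library left out (Hap1 and Nsf without MA replicate 3). The cause of these shifts was not tested.

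Over all genes the count of calls was 35, with 3 under no filter, 20 with a minimum mean of 5, 586 with sample quality weights, 15 with the replicate block, 8 with the length correction and the replicate block, and 0 to 257 with a library left out. Between libraries that share a replicate number, deviations correlated at -0.197, -0.242 and -0.337 for replicates 1, 2 and 3. With only 3 libraries per group, these values cannot show whether the mice were paired. The replicate block changed no call among the subunits. A pseudocount of 1 gives the deposited values. Without read totals, no counting error could be set beside a level.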
